A study of Mus musculus with 12 samples.

Results

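The comparison described here is that of ligated gingiva from mice labelled CybbKO with ligated gingiva from WT mice, 3 libraries against 3, which are 6 of the 12 libraries of the series. Members were all genes measured in these libraries, and 15046 of the 21965 genes in the table had enough counts to be tested. WT mice were C57BL/6 (wildtype) by the labels and C57BL/6J by the methods, and the CybbKO mice carried Cybb-/-, a disruption of the gene present in every cell. In both groups a silk ligature was tied at a maxillary molar and the whole gingival tissue around it was taken after 8 days. The ligature is thus shared and the genotype is what differs. The labels give an age below 12 weeks for all mice, with 3 age- and sex-matched mice in each group, and the methods give another range. WT mice were purchased and the CybbKO line came from another laboratory, and the sources used here do not call the groups littermates. The naive groups, 3 WT and 3 Cybb-/- libraries without a ligature, are used below only to set the same comparison beside that in ligated tissue.

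Cybb encodes gp91phox, the catalytic subunit of the Nox2 NADPH oxidase, which passes electrons from NADPH to oxygen in the phagosome of neutrophils and macrophages. Superoxide made in this way helps to kill ingested microbes and also acts as a signal that restrains inflammation, and loss of the oxidase causes chronic granulomatous disease. A ligature around a molar gathers bacteria at the gum margin, draws neutrophils into the tissue and leads to loss of the bone that holds the tooth.

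Promoter sequences are shown first for the interferon-inducible genes that stand among the higher genes below, and for Cybb itself, because elements known to switch on such genes can be looked for in them. The interferon-stimulated response element (ISRE, searched as GAAA and GAAA with any 2 bases between them) is bound by the interferon regulatory factors, and the gamma-activated site (GAS, searched as TTCNNNGAA) is an element through which interferon-gamma acts. Both strands were searched in RefSeq windows of GRCm38.p6 from 250 bases before to 50 after each gene's start in RefSeq, which for Cybb, Gbp5 and others lies inside the longer GENCODE gene model. Capitals mark the matches, and every stretch is written 5′ to 3′ on the gene's own strand. In Cybb, on the minus strand at chrX:9469332-9469504, 3 matches to the ISRE letters begin 168, 124 and 29 bases before the start.
Cybb: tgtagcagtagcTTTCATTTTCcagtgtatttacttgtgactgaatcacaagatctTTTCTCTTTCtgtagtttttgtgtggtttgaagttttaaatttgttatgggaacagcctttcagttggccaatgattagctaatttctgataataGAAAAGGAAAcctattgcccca
The immunity-related GTPases Igtp (chr11:58199499-58199543, plus strand), Irgm2 (chr11:58214890-58214934, plus strand) and Tgtp2 (chr11:49064261-49064305, minus strand) share an arrangement in which a GAS is followed by an ISRE whose first base lies 11 bases after the first base of the GAS.
Igtp: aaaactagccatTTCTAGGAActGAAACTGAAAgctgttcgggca
Irgm2: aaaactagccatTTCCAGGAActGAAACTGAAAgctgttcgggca
Tgtp2: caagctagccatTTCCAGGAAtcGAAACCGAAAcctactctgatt
The guanylate-binding proteins Gbp2 (chr3:142620592-142620625, plus strand) and Gbp5 (chr3:142496757-142496790, plus strand) and the T-cell chemokine Cxcl10 (chr5:92349081-92349114, minus strand) hold an ISRE match, and the transcription factor Irf1 (chr11:53769912-53769944, plus strand) a GAS match.
Gbp2: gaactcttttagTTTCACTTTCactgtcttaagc
Gbp5: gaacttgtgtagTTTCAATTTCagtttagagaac
Cxcl10: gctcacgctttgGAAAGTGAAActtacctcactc
Irf1: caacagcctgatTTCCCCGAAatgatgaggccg
Of the 21 interferon-gamma response genes tested here, 14 matched a window, and 11 of these (78.6%) held the ISRE letters and 7 (50%) the GAS letters. Of all 11737 windows of tested genes, 3.87% held the ISRE letters and 8.42% the GAS letters. In the interferon-gamma list Cxcl9 and Ifi47 held neither. Of 20 windows of type I interferon-stimulated genes, 12 (60%) held the ISRE letters and 3 (15%) the GAS letters. Among the genes called below or with the 25 smallest p-values, 24 had a window. Of these, 3 (12.5%) held the ISRE letters and 6 (25%) the GAS letters. A match is a description of these letters and not of a bound site. The bases just after the RefSeq start were found in a GENCODE transcript for every gene printed except Irgm2.

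Total counts in the 6 ligated libraries ran from 35845200 to 42613423, and each detected between 16690 and 16813 genes. Levels are given as CPM, the counts of a gene scaled to a common library size with edgeR's TMM factors, in the order of replicates 1, 2 and 3. The tissue carried the markers of oral mucosa, with Krt13 between 20750.3 and 43913 CPM and Krt5 between 3572 and 5013 CPM, together with connective tissue (Col3a1 from 1152 to 3771 CPM), leukocytes (Ptprc from 23.3 to 83.3 CPM) and endothelium (Pecam1 from 70.7 to 129 CPM). Of the neutrophil markers, S100a9 reached 694 to 6861 CPM while Ly6g lay between 0.0498 and 1.77 CPM, and the B-cell marker Ms4a1 did not exceed 0.160 CPM. The CybbKO replicate 2 library had the lowest score of the 6 on the first principal component, at -45.9, with the next at -19.4, and WT replicate 3 had the highest WT level for 39.5% of all tested genes. Because whole tissue was sequenced, more cells of a type and more RNA per cell cannot be told apart.

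Cybb was the only gene whose difference between the genotypes passed the adjusted test in edgeR, and it was higher, not lower, in the libraries labelled CybbKO. The gene (ENSMUSG00000015340, minus strand, chrX:9435252-9487771 of GRCm38) stood at 8.41, 15.2 and 12.8 CPM in WT and 56.1, 51.1 and 63.7 CPM in libraries labelled CybbKO. The WT libraries all lay below the lowest of the other 3, with a log2 fold change of 2.23, a standard error of 0.21 and an adjusted p of 0.0042 in edgeR's quasi-likelihood test. The adjusted p was 0.054 without WT replicate 3 and 0.233 when edgeR was fitted to the 6 ligated libraries alone, which ends the call. The levels go against what loss of the transcript would give, and a count over the whole gene cannot tell reads of the disrupted part from those of the rest, so the mice are called by their labels throughout. In naive tissue Cybb stood at 5.604, 5.38 and 4.19 CPM in WT and 41.6, 56.3 and 45.9 CPM in the libraries labelled CybbKO, with a log2 fold change of 3.24. The fold was thus smaller in ligated than in naive tissue, at an unadjusted p of 0.00523 for the difference and no call after adjustment, while WT libraries had more Cybb with a ligature than without.

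Of the 7 subunits of the Nox2 complex, Cybb included, 5 were higher at an unadjusted p under 0.05, where 2.87% of all tested genes were. Without WT replicate 1 the count was 3, against 1.23% of all tested genes. Ncf4, which encodes the cytosolic subunit p40phox, stood at 2.34, 2.43 and 2.85 CPM in WT and 5.69, 4.44 and 4.59 CPM in libraries labelled CybbKO. Ncf1 (p47phox) stood at 3.88, 5.91 and 7.03 CPM in WT and 10.3, 7.73 and 10.3 CPM in libraries labelled CybbKO. For both genes the genotypes did not overlap. In edgeR's quasi-likelihood test the log2 fold changes were 0.95 for Ncf4 and 0.75 for Ncf1, with unadjusted p of 0.00657 and 0.0115. Rac2, the leukocyte GTPase of the complex, had 0.80 (unadjusted p = 0.0215), and 0.51 without WT replicate 1. Cyba, the membrane partner p22phox of gp91phox, did not pass an unadjusted p of 0.05 (0.70, unadjusted p = 0.0882), and Rac1, which most cells express, had a log2 fold change of 0.07. In naive tissue the log2 fold changes were -0.03 for Ncf4 and -0.07 for Ncf1. CybbKO replicate 2 was the lowest of the 3 libraries labelled CybbKO for all 7 subunits, Cybb included, as it was for 47.2% of all tested genes and 50.9% of the 432 that are described below as higher at an unadjusted p under 0.05.

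Genes near Cybb on chromosome X were examined because a disrupted locus can carry flanking sequence of another strain. Of 37 tested protein-coding genes within 2 Mb on either side, 1 was higher and 0 were lower at an unadjusted p under 0.05 in edgeR's test. Over all tested genes 2.87% were higher and 0.472% lower, so the count was near that share. Of the 37, 4 were higher and 1 lower without overlap of the genotypes, against 5.005% and 2.84% of all tested genes. The median log2 fold change of the 37 was 0.01, in a range from -0.64 to 0.78. The gene that passed the unadjusted test was Was, which encodes the actin regulator WASP of blood cells. It had 1.97, 1.94 and 3.09 CPM in WT and 4.33, 3.504 and 4.13 CPM in libraries labelled CybbKO. Its groups did not overlap, with a log2 fold change of 0.78 in ligated and -0.38 in naive tissue.

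Across all genes the differences leaned towards higher levels in the libraries labelled CybbKO. After Benjamini-Hochberg adjustment edgeR called 1 of 15046 genes (0.00665%), and 503 (3.34%) had an unadjusted p under 0.05, of which 432 were higher (2.87% of all tested) and 71 lower (0.472%). The share of these that was higher ran from 76.2% to 86.7% over all settings tried. Libraries of the genotypes did not overlap for 1180 genes (7.84%), 753 of them higher (5.005%) and 427 lower (2.84%), and 53.4% of all genes had a log2 fold change above 0. The 432 higher genes had a median log2 fold change of 0.92, and 196 of them differed more than 2-fold, against a median of 0.01 over all tested genes. The count of 503 rested on single libraries, since it was 956 without CybbKO replicate 2, 760 without WT replicate 3 and 244 without WT replicate 1. As a background for the lists below, the share of all tested genes that was higher at an unadjusted p under 0.05 was 5.003% without CybbKO replicate 2, 2.33% without CybbKO replicate 1 and 1.98% without CybbKO replicate 3. The same share was 1.23% without WT replicate 1, 2.06% without WT replicate 2 and 4.21% without WT replicate 3. Of the 432 higher genes CybbKO replicate 3 was the highest of the 6 libraries for 50.5%, replicate 2 for 34.0% and replicate 1 for 15.5%. None of the genes below other than Cybb passed the adjusted edgeR threshold, and unadjusted p-values are given to order them.

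DESeq2, the tool of the study's methods, called 18 of 16030 genes on the same 12 libraries (0.112%), 16 higher and 2 lower, and 75 of 16838 when fitted to the 6 ligated libraries alone (0.445%). Of the 18, 16 were also called in that smaller fit. They include 4 acute-phase genes, the interferon-inducible genes Ifi213, Gbp5 and Apol8 and the myeloid genes Igsf6, Hcls1, Themis2, Rasgrp4 and Slfn4. Igsf6, an immunoglobulin-family receptor of myeloid cells, stood at 2.74, 4.004 and 4.49 CPM in WT and 8.7999, 6.53 and 10.5 CPM in libraries labelled CybbKO. Hcls1, a cortactin relative that links receptors to actin in blood cells, stood at 6.795, 7.82 and 9.86 CPM in WT and 14.9, 14.6 and 16.2 CPM in libraries labelled CybbKO. The genotypes did not overlap for either gene, and the log2 fold changes were 1.20 with a standard error of 0.26 for Igsf6 and 0.90 with a standard error of 0.20 for Hcls1. In naive tissue both were near 0 (log2 fold changes -0.03 and 0.04). One of the 2 lower calls, 9430007A20Rik, rested on WT replicate 1 alone, with 149 counts there and 0 in the other 5 ligated libraries, and edgeR's filter removed it.

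**Figure D1:**
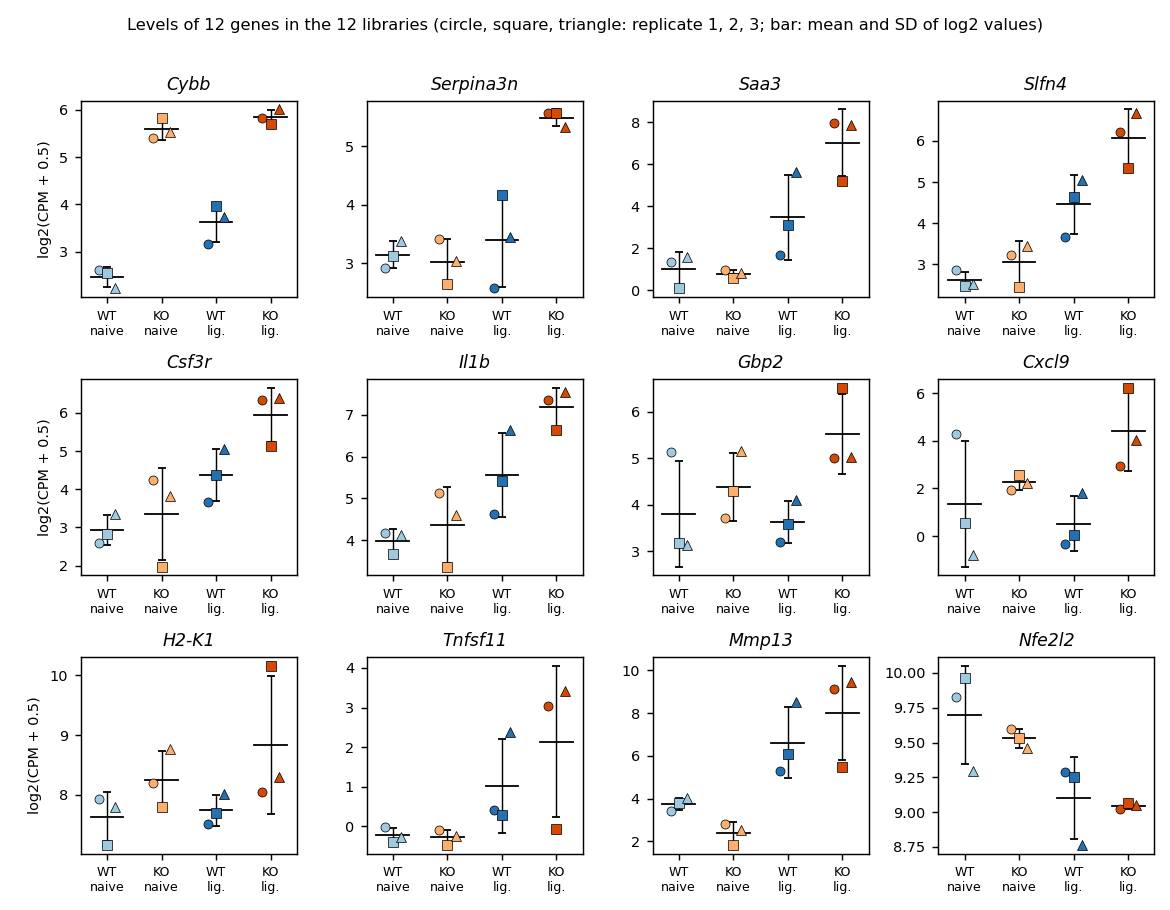
Levels of 12 genes in all 12 libraries, on the log2(CPM + 0.5) scale, by genotype and tissue, where circles, squares and triangles are replicates 1, 2 and 3 and the bars give the mean and SD of 3 libraries. Cybb and Serpina3n do not overlap between the ligated genotypes, CybbKO replicate 2 (square) lies highest for Gbp2, Cxcl9 and H2-K1 and low for Tnfsf11 and Mmp13, and Nfe2l2 overlaps.

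Acute-phase genes had the largest median difference of the 35 lists examined with all 6 libraries and the filter used here. The interferon-gamma list had a larger one without WT replicate 1 or 3 or CybbKO replicate 1 or 3, and with at least 10 counts in every library. Of 13 tested members all had a log2 fold change above 0, 11 had an unadjusted p under 0.05 and the median was 2.01, and in naive tissue the median was 0.08. Serpina3n, an inhibitor of neutrophil serine proteases that is induced by STAT3, stood at 5.43, 17.4 and 10.4 CPM in WT and 47.1, 47.1 and 39.7 CPM in libraries labelled CybbKO. The 3 libraries labelled CybbKO lay close together and above all WT libraries, with log2 fold change 2.01, standard error 0.35, unadjusted p = 9.22e-05 in edgeR's test and an adjusted p of 5.46e-05 in DESeq2. Haptoglobin (Hp), which binds free haemoglobin, stood at 2.04, 6.44 and 4.39 CPM in WT and 25.1, 20.7 and 26.7 CPM in libraries labelled CybbKO with no overlap (log2 fold change 2.49, adjusted p = 0.0224 in DESeq2). Saa1, a serum amyloid A apolipoprotein, stood at 0.0747, 0.314 and 0.259 CPM in WT and 1.57, 0.829 and 9.77 CPM in libraries labelled CybbKO. It was close to absent in WT and highest in CybbKO replicate 3, with a log2 fold change of 4.22 with a standard error of 0.87 that was 2.46 without that library, and its sequence is shared in large part with other Saa genes, so that reads may be split between them.

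Saa3, the serum amyloid A made outside the liver, varied widely within both genotypes, at 2.66, 8.14 and 49.2 CPM in WT and 251, 35.8 and 236 CPM in libraries labelled CybbKO. WT replicate 3 lay above CybbKO replicate 2, so the groups overlapped at a log2 fold change of 3.12 with a standard error of 0.94, or of 5.01 without WT replicate 3. Serpina3f stood at 0.174, 0.209 and 0.389 CPM in WT and 1.33, 3.18 and 2.15 CPM in libraries labelled CybbKO. Serpina3g stood at 1.49, 3.06 and 4.51 CPM in WT and 6.95, 9.98 and 13.6 CPM in libraries labelled CybbKO. Neither overlapped between the genotypes, and the members of this gene cluster resemble each other in sequence. Lbp, a member that carries bacterial lipopolysaccharide to CD14, had a log2 fold change of 0.85 (unadjusted p = 0.0181 in edgeR's test). Kng2, a kininogen gene outside the list that DESeq2 called, had 2.34 (unadjusted p = 0.000168 in edgeR's test). When single libraries were left out, between 8 and 12 members of the list had an unadjusted p under 0.05, and the median lay between 1.42 (without WT replicate 1) and 2.10 (without WT replicate 3). With at least 10 counts asked for in every library, 9 members were left and their median was 1.24.

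The test of whether the genotype difference itself differed between ligated and naive tissue called 0 genes in both tools, although the unadjusted p was under 0.05 for 342 genes in edgeR's test and for 447 in that of DESeq2. Of the acute-phase members, 10 of 13 had a larger difference in ligated tissue at an unadjusted p under 0.05, where 1.79% of all genes did. Saa1 and Serpina3f, among these members, were near the floor in naive tissue and in ligated WT. For Serpina3n the naive log2 fold change was -0.10 (unadjusted p = 0.000971 for the difference in edgeR), for Saa1 -0.25 (unadjusted p = 0.00676) and for Saa3 -0.45 (unadjusted p = 0.0268).

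Receptors and activation genes of mature neutrophils mostly had higher levels in the libraries labelled CybbKO, and fewer granule genes passed the unadjusted test. Of 27 receptor and activation genes tested, 26 had a log2 fold change above 0, 20 had an unadjusted p under 0.05 and 16 did not overlap, with a median of 1.45. Csf3r, the receptor for G-CSF, stood at 12.3, 20.4 and 32.9 CPM in WT and 79.7, 34.5 and 83.5 CPM in libraries labelled CybbKO. Cxcr2, the receptor for the neutrophil-attracting CXC chemokines, stood at 9.28, 9.71 and 16.3 CPM in WT and 29.6, 17.6 and 38.9 CPM in libraries labelled CybbKO. Slfn4, a schlafen of maturing myeloid cells, stood at 12.2, 24.4 and 32.9 CPM in WT and 73.95, 39.9 and 102 CPM in libraries labelled CybbKO. In each of the 3 genes CybbKO replicate 2 was the lowest library of its group and still lay above all WT libraries, and the log2 fold changes were 1.59 with a standard error of 0.54, 1.29 with a standard error of 0.32 and 1.64 with a standard error of 0.40. For Slfn4 the adjusted p was 0.0347 in DESeq2.

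Il1r2, the decoy receptor that binds IL-1 without signalling, stood at 10.2, 10.05 and 16.3 CPM in WT and 23.3, 17.9 and 28.1 CPM in libraries labelled CybbKO. The integrin chains Itgam and Itgb2, which together form the adhesion receptor Mac-1, had log2 fold changes of 0.86 and 0.94 without overlap. Trem1, which amplifies responses to bacteria, had 1.54 and the formyl peptide receptor Fpr1 1.65, with unadjusted p of 0.0127 and 0.00528 in edgeR's test, and Trem1 had 2.39 without WT replicate 3. Of these genes Il1r2 had a naive log2 fold change of -0.28 and a larger difference in ligated tissue (unadjusted p = 0.0034), and over the list 4 of 27 did. WT replicate 3 was the highest WT library for 25 of the 27 genes, against 69.0% of the 432 higher genes. Without it 24 had an unadjusted p under 0.05 and the median was 2.01, and without WT replicate 1 these were 13 and 1.12.

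Of 14 granule and calgranulin genes, 13 had a log2 fold change above 0 and 3 an unadjusted p under 0.05, with a median of 0.77 that was 0.36 without WT replicate 1, 0.37 without CybbKO replicate 3 and 0.51 without CybbKO replicate 2. Over the other fits, scalings and filters, which kept all ligated libraries, the median was 0.46 at its lowest. S100a9, a subunit of the calcium-binding alarmin calprotectin, stood at 694, 1459.8 and 2094 CPM in WT and 2412, 1414 and 6861 CPM in libraries labelled CybbKO. The genotypes overlapped, and CybbKO replicate 3 stood far above the rest, so that the log2 fold change of 1.33 (unadjusted p = 0.0322) was 0.43 without it. Mmp8, the collagenase of specific granules, was near 0 in WT replicate 1, at 0.523, 1.52 and 4.0998 CPM in WT and 5.07, 6.98 and 5.25 CPM in libraries labelled CybbKO, and did not overlap between the genotypes. Ltf (lactoferrin), which gland epithelium also makes, stood at 282, 590.1 and 275 CPM in WT and 187, 501 and 173 CPM in libraries labelled CybbKO, with overlap and a log2 fold change of -0.41. Without WT replicate 1, 0 of the 14 had an unadjusted p under 0.05, and 1 without WT replicate 2 or CybbKO replicate 3, against 6 without WT replicate 3. Mpo, Elane, Prtn3 and Ctsg, the azurophil granule proteases and peroxidase of immature neutrophils, had too few counts to be tested.

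Among chemokines that recruit neutrophils the values turned on WT replicate 3. Of 12 genes of this and the IL-17 list, 11 had a log2 fold change above 0 but 1 had an unadjusted p under 0.05, with a median of 0.52. Cxcl5, made by epithelium, stood at 83.9, 244 and 809 CPM in WT and 567, 217 and 646 CPM in libraries labelled CybbKO. Cxcl1, a ligand of Cxcr2, stood at 12.3, 23.8 and 75.8 CPM in WT and 56.9, 25.5 and 59.99 CPM in libraries labelled CybbKO. WT replicate 3 was the highest of all 6 libraries for both chemokines, and WT replicate 1 the lowest. Csf3, which encodes G-CSF, had 0.57 with a standard error of 0.65 (0.14 without WT replicate 1, 1.56 without WT replicate 3). Il17a, the cytokine of type 17 lymphocytes, had 0.99 with a standard error of 0.72 (0.57 without CybbKO replicate 3, 2.09 without WT replicate 3). The list's median was 1.53 without WT replicate 3, with 7 genes at an unadjusted p under 0.05, and 0.14 without WT replicate 1, with 0. Without CybbKO replicate 1 or 3 the count was also 0.

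**Figure D2:**
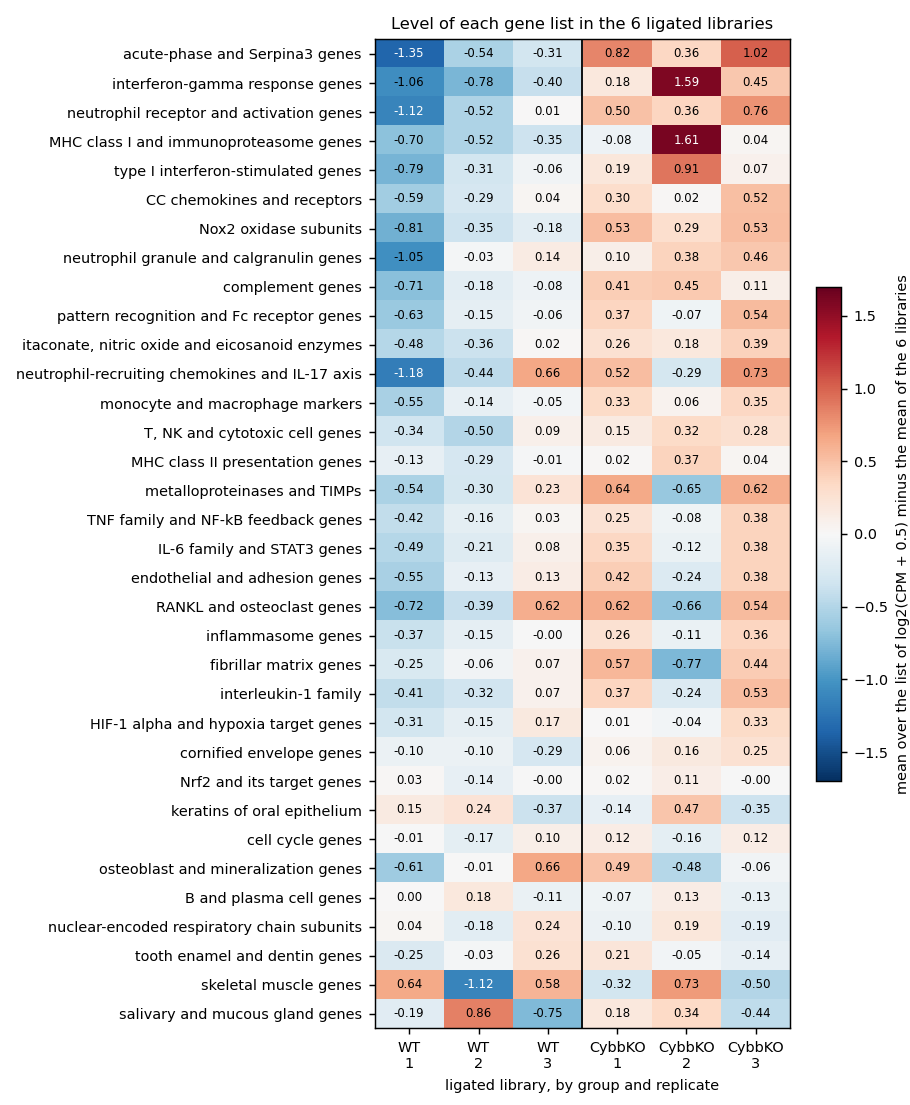
Mean level of each gene list in the 6 ligated libraries, as the mean over its tested members of log2(CPM + 0.5) minus the mean of the 6 libraries for that gene, with lists in lines and libraries in columns. The acute-phase list lies at -1.35, -0.54 and -0.31 in WT and 0.82, 0.36 and 1.02 in CybbKO, while the interferon-gamma and MHC class I lists are highest in CybbKO replicate 2 (1.59 and 1.61) and the RANKL and osteoclast list is low there (-0.66).

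Most interferon-gamma response genes were higher in all 3 libraries labelled CybbKO than in WT, and most were highest in replicate 2. Of 21 tested members all had a log2 fold change above 0, 19 had an unadjusted p under 0.05 and 18 did not overlap, with a median of 1.86. Cxcl9, the chemokine for activated T cells that depends on interferon-gamma, stood at 0.299, 0.523 and 3.04 CPM in WT and 7.13, 74.6 and 15.9 CPM in libraries labelled CybbKO. Gbp2, a GTPase that attacks the vacuoles of intracellular microbes, stood at 8.61, 11.5 and 16.5 CPM in WT and 31.6, 91.3 and 32.2 CPM in libraries labelled CybbKO. Gbp5, which promotes inflammasome assembly, stood at 1.52, 3.22 and 3.66 CPM in WT and 6.97, 20.4 and 10.1 CPM in libraries labelled CybbKO. In each of these the genotypes did not overlap and CybbKO replicate 2 lay above replicates 1 and 3, and the log2 fold changes were 4.66 with a standard error of 1.47, 2.08 with a standard error of 0.62 and 2.16 with a standard error of 0.53. Gbp5 was also called by DESeq2 (adjusted p = 0.0213).

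CybbKO replicate 2 had the highest level of all 6 libraries for 20 of the 21 genes, where it was highest for 28.6% of all tested genes and, as given above, for 34.0% of the 432 higher ones. Without it the list's median was 1.12 and 8 members had an unadjusted p under 0.05, so the direction did not rest on that library while the size did. Without it the log2 fold change was 3.16 for Cxcl9, 1.39 for Gbp2, 1.61 for Gbp5, 1.03 for Gbp7 and 0.72 for Irf1. Irf1, a transcription factor that interferon-gamma induces early, stood at 20.1, 26.1 and 24.3 CPM in WT and 34.3, 62.7 and 42.9 CPM in libraries labelled CybbKO, with no overlap (log2 fold change 0.99 with a standard error of 0.25). Cxcl10, at 0.448, 0.497 and 1.505 CPM in WT and 2.87, 15.1 and 5.34 CPM in libraries labelled CybbKO, had a log2 fold change of 3.24 with a standard error of 1.07. Ifng, the gene for interferon-gamma, had too few counts to be tested.

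The immunity-related GTPases whose promoters were printed above were likewise highest in CybbKO replicate 2. Igtp stood at 4.01, 5.55 and 7.01 CPM in WT and 11.99, 49.4 and 12.6 CPM in libraries labelled CybbKO. Irgm2 stood at 8.59, 11.3 and 11.03 CPM in WT and 19.2, 50.6 and 20.97 CPM in libraries labelled CybbKO. Tgtp2 stood at 0.622, 0.707 and 1.01 CPM in WT and 2.48, 7.65 and 2.305 CPM in libraries labelled CybbKO. The genotypes did not overlap for any of the 3, and without CybbKO replicate 2 the log2 fold changes went from 2.16 to 1.15, from 1.56 to 0.97 and from 2.40 to 1.61. Iigp1, another member of the family, stood at 3.96, 8.03 and 8.51 CPM in WT and 19.04, 63.96 and 25.5 CPM in libraries labelled CybbKO with 2.40 with a standard error of 0.79. The gene models of Igtp and Irgm2 overlap, and Tgtp1 and Tgtp2 are near copies, so their reads may be shared.

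MHC class I and immunoproteasome genes depended on CybbKO replicate 2 more strongly still. Of 17 tested all had a log2 fold change above 0, 12 had an unadjusted p under 0.05 and 12 did not overlap, with a median of 1.29. H2-K1, a classical class I heavy chain, stood at 181, 208 and 257 CPM in WT and 263, 1144 and 313 CPM in libraries labelled CybbKO. B2m, its light chain beta-2 microglobulin, stood at 180.3, 239 and 323 CPM in WT and 374, 1297 and 469 CPM in libraries labelled CybbKO. Psmb8, an immunoproteasome subunit that trims peptides for these molecules, stood at 4.904, 6.57 and 7.78 CPM in WT and 11.4, 41.4 and 11.8 CPM in libraries labelled CybbKO. The genotypes did not overlap in any of the 3, WT replicate 3 and CybbKO replicate 1 lay near each other for H2-K1, and CybbKO replicate 2 was the highest library for all 17 genes. Without it the median of the list was 0.40 and 3 genes had an unadjusted p under 0.05, and the log2 fold changes went from 1.41 to 0.42 for H2-K1, from 1.53 to 0.77 for B2m and from 1.74 to 0.85 for Psmb8. Nlrc5, the transactivator of class I genes, stood at 11.4, 12.5 and 10.5 CPM in WT and 19.7, 72.8 and 28.3 CPM in libraries labelled CybbKO with a log2 fold change of 1.81, or 1.06 without that library. H2-Q6 stood at 2.61, 3.38 and 4.96 CPM in WT and 7.26, 91.7 and 10.999 CPM in libraries labelled CybbKO, with a log2 fold change of 3.33 that was 1.32 without CybbKO replicate 2, and its reads may be shared with its near copy H2-Q7.

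MHC class II genes and type I interferon-stimulated genes were less uniform. Cd74, the class II invariant chain, stood at 126, 113 and 122 CPM in WT and 141, 259 and 127 CPM in libraries labelled CybbKO, and of the 10 class II genes 2 had an unadjusted p under 0.05, against 0 without CybbKO replicate 2 or without WT replicate 1 or 2 and 4 without any 1 of the other 3 libraries. Of 27 type I genes, 26 had a log2 fold change above 0 and 8 an unadjusted p under 0.05, with a median of 0.95 that was 0.42 without CybbKO replicate 2, where 2 genes passed. Without WT replicate 1 the count was 1 and the median 0.62, and without WT replicate 2 the count was 5. Zbp1, a sensor of Z-form nucleic acid, stood at 1.32, 2.303 and 2.31 CPM in WT and 5.22, 13.9 and 5.25 CPM in libraries labelled CybbKO. Oasl2, a relative of the oligoadenylate synthetases, stood at 5.95, 12.6 and 12.1 CPM in WT and 25.3, 52.8 and 27.5 CPM in libraries labelled CybbKO. Both were without overlap and again highest in CybbKO replicate 2 (log2 fold changes 2.04 and 1.78). Isg15, the ubiquitin-like modifier that type I interferon induces strongly, overlapped at 1.94, 2.15 and 4.0998 CPM in WT and 3.47, 12.5 and 2.88 CPM in libraries labelled CybbKO and had an unadjusted p of 0.213. Ifi213, a member of the DNA-sensing Ifi200 family, was even among the 3 libraries labelled CybbKO, at 0.373, 0.523 and 0.545 CPM in WT and 1.46, 1.95 and 1.73 CPM in libraries labelled CybbKO, and DESeq2 called it (adjusted p = 0.00757). Samhd1, a nucleotide phosphohydrolase that limits viruses, stood at 118, 138 and 139.7 CPM in WT and 175, 216 and 209 CPM in libraries labelled CybbKO, a small difference without overlap (0.60 with a standard error of 0.15).

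**Figure D3:**
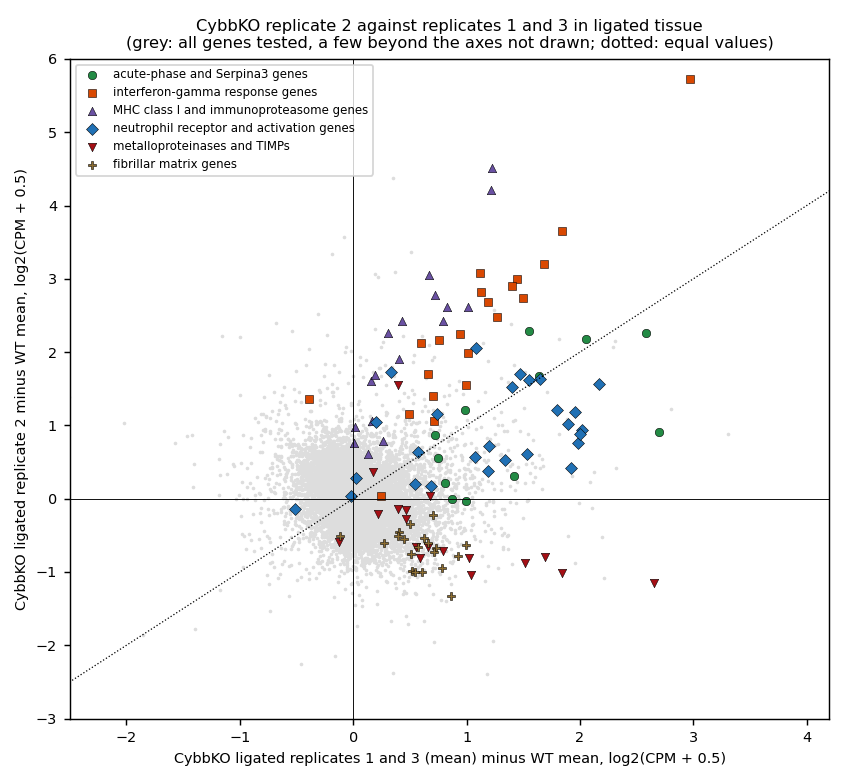
Each point is a gene: the x axis gives the mean log2(CPM + 0.5) of CybbKO replicates 1 and 3 minus the mean of WT in ligated tissue, and the y axis the same for CybbKO replicate 2, with 6 genes beyond the axes. MHC class I and interferon-gamma genes lie mostly above the diagonal, the matrix and metalloproteinase genes mostly below it, and acute-phase genes mostly high on both axes.

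Cytotoxic lymphocyte genes were low and variable. Of 17 T, NK and cytotoxic genes, 16 had a log2 fold change above 0 and 4 an unadjusted p under 0.05, with a median of 0.49 in ligated and 0.50 in naive tissue. Gzma, a granzyme, stood at 0.0996, 0.209 and 0.182 CPM in WT and 0.627, 2.33 and 0.479 CPM in libraries labelled CybbKO. Cd8a, the co-receptor of cytotoxic T cells, stood at 0.324, 0.314 and 0.208 CPM in WT and 0.522, 1.498 and 0.913 CPM in libraries labelled CybbKO. Neither overlapped and both were highest in CybbKO replicate 2, and in naive tissue the log2 fold changes were 2.10 and 2.08. The ligated log2 fold change of Gzma was 2.78, and 1.74 without CybbKO replicate 2. Gzmb stood at 0.174, 0.419 and 0.752 CPM in WT and 1.44, 1.34 and 2.05 CPM in libraries labelled CybbKO, with 1.84 in ligated and 2.74 in naive tissue. The count of 4 was 2 without WT replicate 1 or 2, and without WT replicate 3 it was 6 with a ligated median of 0.84.

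Cytokines of the IL-1, IL-6 and TNF families differed gene by gene. Il1b, the pyrogenic cytokine that inflammasomes mature, stood at 24.3, 42.1 and 98.7 CPM in WT and 162, 99.5 and 186 CPM in libraries labelled CybbKO. CybbKO replicate 2 and WT replicate 3 all but met, and the log2 fold change was 1.44 with a standard error of 0.50 (unadjusted p = 0.0145), or 2.17 without WT replicate 3. Its antagonist Il1rn, which is abundant in oral epithelium, stood at 267, 315 and 459.6 CPM in WT and 439, 212 and 503 CPM in libraries labelled CybbKO and had 0.15. Of the 14 genes of the IL-1 list 4 had an unadjusted p under 0.05, Il18rap, the accessory chain of the IL-18 receptor, with the smallest (log2 fold change 1.29, no overlap), and the count was 1 without WT replicate 1 and 2 without WT replicate 2.

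Il6 was near the limit of detection in WT replicates 1 and 2 and CybbKO replicate 2, at 0.124, 0.236 and 1.56 CPM in WT and 3.42, 0.401 and 4.06 CPM in libraries labelled CybbKO. The groups overlapped, at log2 fold change 2.04, standard error 0.92, unadjusted p = 0.0465 in edgeR's test, and the log2 fold change was 3.85 without WT replicate 3. Socs3, which STAT3 induces and which damps IL-6 signalling, did not overlap, at 12.4, 24.1 and 27.9 CPM in WT and 43.6, 39.2 and 63.8 CPM in libraries labelled CybbKO, with a log2 fold change of 1.19 with a standard error of 0.37, and Stat3 itself had 0.29 with a standard error of 0.12. Oncostatin M (Osm), a relative of IL-6 made by myeloid cells, had 1.05 (unadjusted p = 0.0475), between 0.69 without WT replicate 1 and 1.85 without WT replicate 3. Tnf stood at 1.82, 3.27 and 6.54 CPM in WT and 4.86, 5.94 and 5.07 CPM in libraries labelled CybbKO, with the highest value in WT replicate 3 and an unadjusted p of 0.27. The TNF list had a median of 0.32 (0.54 without CybbKO replicate 2) and 2 of 15 genes at an unadjusted p under 0.05, 1 of which was the receptor Tnfrsf1b (0.73, and 0.45 without WT replicate 1). The count was 0 without WT replicate 1 or 2 or CybbKO replicate 1 or 3, 4 without WT replicate 3 and 5 without CybbKO replicate 2.

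Among 17 CC chemokines and receptors 15 had a log2 fold change above 0, 5 had an unadjusted p under 0.05 and the median was 0.82, or 0.54 without WT replicate 1 or CybbKO replicate 3. Ccl6, a myeloid chemokine, was tight within both groups at 19.1, 15.4 and 22.1 CPM in WT and 31.4, 26.9 and 31.4 CPM in libraries labelled CybbKO and did not overlap (log2 fold change 0.66, standard error 0.16, unadjusted p = 0.00138). Ccl2, which draws monocytes, stood at 1.74, 1.83 and 4.904 CPM in WT and 7.89, 3.02 and 8.49 CPM in libraries labelled CybbKO, and its groups overlapped. Without CybbKO replicate 3, 1 of the 17 genes had an unadjusted p under 0.05, and 2 without WT replicate 1, against 8 without CybbKO replicate 2 and 8 without WT replicate 3.

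Macrophage markers and Fc receptors mostly had log2 fold changes above 0 in ligated tissue, with list medians below 0 in naive tissue. Of 19 monocyte and macrophage markers 18 had a log2 fold change above 0 and 8 an unadjusted p under 0.05, with a median of 0.49 against -0.26 in naive tissue, and 8 had a larger difference in ligated tissue at an unadjusted p under 0.05. Fcgr3, an activating receptor for immunoglobulin G, stood at 6.17, 9.37 and 10.02 CPM in WT and 17.2, 13.2 and 19.6 CPM in libraries labelled CybbKO. C1qb, a subunit of complement C1q that tissue macrophages make, stood at 11.9, 18.5 and 13.4 CPM in WT and 22.01, 25.1 and 20.7 CPM in libraries labelled CybbKO. Csf1r, the receptor that macrophages and osteoclast precursors need, stood at 21.4, 25.5 and 31.4 CPM in WT and 42.04, 29.3 and 38.9 CPM in libraries labelled CybbKO. Fcgr3 and C1qb did not overlap, and Csf1r did, where WT replicate 3 lay above CybbKO replicate 2. The log2 fold changes in ligated and naive tissue were 0.97 and -0.27 for Fcgr3 (unadjusted p = 0.00285 for the difference in edgeR), 0.63 and -0.38 for C1qb (unadjusted p = 0.00478), and 0.49 and -0.28 for Csf1r (unadjusted p = 0.0142). Over leaving out single libraries the macrophage list's median lay between 0.36 and 0.58, and its count between 3 (without WT replicate 1) and 10 (without CybbKO replicate 2).

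Of 19 pattern recognition and Fc receptor genes all had a log2 fold change above 0 and 7 an unadjusted p under 0.05, with a median of 0.64 against -0.27 in naive tissue. The high-affinity receptor Fcgr1 stood at 1.34, 2.36 and 1.92 CPM in WT and 3.499, 3.18 and 3.63 CPM in libraries labelled CybbKO. Tlr2, which binds bacterial lipopeptides, stood at 7.74, 10.1 and 11.6 CPM in WT and 17.7, 12.9 and 20.2 CPM in libraries labelled CybbKO. Cd14, the lipopolysaccharide co-receptor, stood at 4.63, 8.32 and 13.5 CPM in WT and 22.3, 15.8 and 24.3 CPM in libraries labelled CybbKO. The genotypes did not overlap for any of the 3. Their naive log2 fold changes were -0.45, -0.36 and -0.23, and the difference between the tissues had unadjusted p of 0.00736, 0.0124 and 0.0288. CybbKO replicate 2 was the lowest library of its group for 17 of the 19 genes, and the count was 11 without it and 2 without WT replicate 1.

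Among inflammasome genes, 4 of 12 had an unadjusted p under 0.05. Nlrp3, the sensor of membrane damage, stood at 1.47, 1.81 and 2.75 CPM in WT and 5.41, 2.92 and 7.895 CPM in libraries labelled CybbKO. Mefv, which encodes pyrin, stood at 1.54, 2.75 and 4.697 CPM in WT and 8.17, 3.504 and 10.8 CPM in libraries labelled CybbKO. Nlrp3 did not overlap and Mefv did, with log2 fold changes of 1.43 and 1.32. Without CybbKO replicate 3 or WT replicate 1 the count was 1. Of 13 complement genes 7 had an unadjusted p under 0.05, at a median of 0.66. C3, the central component, was lowest in WT replicate 1 at 33.5, 92.01 and 72.03 CPM in WT and 138, 149.6 and 84.4 CPM in libraries labelled CybbKO. C5ar1, the receptor for the anaphylatoxin C5a, stood at 2.91, 3.61 and 6.25 CPM in WT and 12.95, 7.46 and 13.5 CPM in libraries labelled CybbKO, without overlap. The count for complement was 4 without CybbKO replicate 1 and 4 without WT replicate 1.

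Acod1, which encodes the enzyme that makes the antimicrobial and anti-inflammatory metabolite itaconate in activated myeloid cells, stood at 1.99, 4.97 and 8.87 CPM in WT and 14.8, 22.2 and 20.01 CPM in libraries labelled CybbKO. The genotypes did not overlap and the log2 fold change was 1.85 with a standard error of 0.44, with an adjusted p of 0.025 in DESeq2. Nos2, the inducible nitric oxide synthase, was low at 0.821, 1.05 and 1.14 CPM in WT and 1.44, 2.92 and 2.19 CPM in libraries labelled CybbKO and had 1.12. In the eicosanoid pathway Alox5ap, the partner of 5-lipoxygenase in leukotriene synthesis, stood at 7.57, 7.27 and 10.4 CPM in WT and 13.7, 15.9 and 13.2 CPM in libraries labelled CybbKO and was higher at an unadjusted p of 0.00429. Ptgs1, the constitutive cyclooxygenase, stood at 53.6, 41.4 and 43.7 CPM in WT and 39.9, 27.5 and 31.3 CPM in libraries labelled CybbKO and was lower at an unadjusted p of 0.0143. Neither gene overlapped between the genotypes. Of these 14 enzymes 4 were higher and 1 lower at an unadjusted p under 0.05, and the higher count was 8 without WT replicate 3 and 2 without WT replicate 1.

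**Figure D4:**
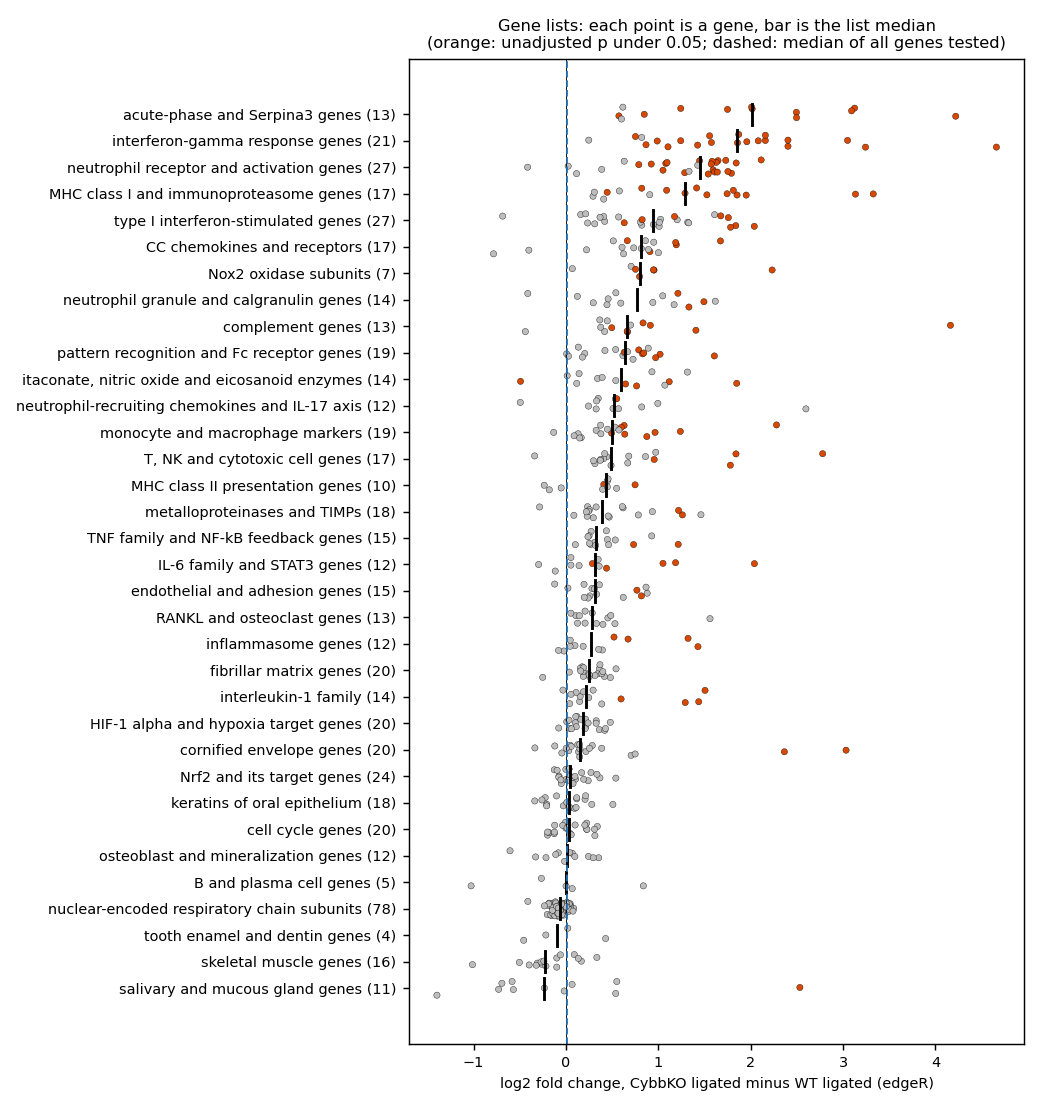
Log2 fold changes of the members of each list in ligated tissue, libraries labelled CybbKO minus WT, with members at an unadjusted p under 0.05 in edgeR's test in orange and the median of each list as a bar. The acute-phase (median 2.01), interferon-gamma (1.86), neutrophil receptor (1.45) and MHC class I (1.29) lists lie farthest from 0, and the Nrf2 list is centred at 0.04.

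Few genes of bone loss and of matrix breakdown passed the unadjusted test. Tnfsf11 encodes RANKL, the cytokine that drives osteoclast formation, and stood at 0.821, 0.707 and 4.75 CPM in WT and 7.78, 0.455 and 10.2 CPM in libraries labelled CybbKO. It was high in CybbKO replicates 1 and 3 and in WT replicate 3, and CybbKO replicate 2 was the lowest of the 6 libraries, so the groups overlapped (log2 fold change 1.56, standard error 0.89, unadjusted p = 0.104). Its range over leaving out single libraries was 0.98 to 3.01. The receptor RANK (Tnfrsf11a) stood at 3.76, 5.97 and 8.28 CPM in WT and 9.897, 5.94 and 10.2 CPM in libraries labelled CybbKO. The decoy receptor osteoprotegerin (Tnfrsf11b) stood at 10.6, 27.6 and 47.8 CPM in WT and 28.6, 32.7 and 37.9 CPM in libraries labelled CybbKO. Both overlapped, with log2 fold changes of 0.53 with a standard error of 0.43 and 0.21 with a standard error of 0.37, which were 0.27 and -0.21 without WT replicate 1 and 0.83 and 0.79 without WT replicate 3. Csf1, the ligand of Csf1r, stood at 15.6, 23.1 and 16.9 CPM in WT and 25.3, 25.6 and 30.6 CPM in libraries labelled CybbKO, without overlap and with an unadjusted p of 0.0442. All 13 genes of the RANKL and osteoclast list had a log2 fold change above 0, at a median of 0.28, and 0 had an unadjusted p under 0.05 in edgeR. Without CybbKO replicate 2 the median was 0.60 and 2 genes passed, and without WT replicate 3 these were 0.85 and 3. The median was 0.08 without CybbKO replicate 1, 0.09 without WT replicate 1, 0.12 without CybbKO replicate 3 and 0.18 without WT replicate 2, with 0 genes each time.

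Mmp13, the collagenase of bone and inflamed connective tissue, followed the same pattern as Tnfsf11 across libraries, at 38.1, 67.6 and 363 CPM in WT and 554, 43.8 and 693 CPM in libraries labelled CybbKO. CybbKO replicate 2 lay within the WT values and WT replicate 3 far above the other 2, and the log2 fold change was 1.46 with a standard error of 0.88 (unadjusted p = 0.123), or 3.02 without WT replicate 3. Mmp10, a stromelysin of wounded epithelium, stood at 9.46, 7.43 and 14.3 CPM in WT and 32.1, 5.54 and 34.9 CPM in libraries labelled CybbKO, also with overlap, and had a larger difference in ligated than in naive tissue (log2 fold changes 1.22 and -1.64, unadjusted p = 0.00254 in edgeR). Mmp12, the macrophage elastase, was instead highest in CybbKO replicate 2, at 11.3, 8.897 and 23.9 CPM in WT and 18.1, 40.3 and 17.4 CPM in libraries labelled CybbKO. Of 18 metalloproteinases and TIMPs, 17 had a log2 fold change above 0 and 2 an unadjusted p under 0.05, against 11 without CybbKO replicate 2, 6 without WT replicate 3 and 0 without WT replicate 1 or 2.

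For fibrillar matrix genes the count likewise turned on CybbKO replicate 2. Col1a1, the main chain of type I collagen, stood at 765, 874 and 1314 CPM in WT and 1667, 819 and 1451 CPM in libraries labelled CybbKO, and CybbKO replicate 2 fell between WT replicates 1 and 2. Of 20 genes 19 had a log2 fold change above 0, at a median of 0.25, and 0 had an unadjusted p under 0.05, against a median of 0.58 and 10 genes without CybbKO replicate 2. The median was 0.03 without CybbKO replicate 1 and 0.12 without CybbKO replicate 3. Osteoblast and mineralization genes had a median of 0.01, with 6 of 12 above 0, and one between -0.22 (without WT replicate 1) and 0.46 (without WT replicate 3, where 1 gene was higher at an unadjusted p under 0.05).

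Nrf2 and its antioxidant target genes had log2 fold changes around 0. Nfe2l2, which encodes Nrf2, stood at 625, 609.5 and 435 CPM in WT and 519, 534 and 531 CPM in libraries labelled CybbKO, and its groups overlapped (log2 fold change -0.08 with a standard error of 0.18, unadjusted p = 0.684). Hmox1 (haem oxygenase 1) stood at 82.7, 64.7 and 62.1 CPM in WT and 77.6, 106 and 86.6 CPM in libraries labelled CybbKO. Nqo1, a quinone reductase, stood at 130.2, 86.04 and 117 CPM in WT and 95.05, 116 and 94.2 CPM in libraries labelled CybbKO. Gclc, the first enzyme of glutathione synthesis, stood at 157, 153 and 182 CPM in WT and 179, 173 and 230.3 CPM in libraries labelled CybbKO. The 3 genes overlapped, with log2 fold changes of 0.37 with a standard error of 0.24, -0.13 with a standard error of 0.20 and 0.24 with a standard error of 0.19. Of 24 genes on the list 17 had a log2 fold change above 0 but the median was 0.04 and 0 had an unadjusted p under 0.05 in edgeR. With single libraries left out the median lay between -0.03 and 0.11, and 3 genes passed without CybbKO replicate 2 and 2 without WT replicate 3. The antioxidant response element (searched as TGACNNNGC) was in 9 of 19 promoter windows of this list (47.4%) and in 16.6% of all windows, and the ISRE letters in 0 of the 19. Hif1a, the oxygen-regulated factor, stood at 563, 700.2 and 754 CPM in WT and 794, 397 and 1144 CPM in libraries labelled CybbKO, with overlap and the lowest value in CybbKO replicate 2, and the hypoxia list had 0 of 20 genes at an unadjusted p under 0.05, against 5 without WT replicate 3, and a median of 0.18 that lay between 0.06 (without WT replicate 1) and 0.31 (without WT replicate 3).

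Epithelial lists showed little difference. Keratins had a median of 0.04, with 0 of 18 genes at an unadjusted p under 0.05, but -0.22 and 2 lower genes without CybbKO replicate 2. Krt13, the keratin of non-cornified oral epithelium, stood at 37687, 28928 and 20750.3 CPM in WT and 25405, 43913 and 25365 CPM in libraries labelled CybbKO. Of 20 cornified envelope genes 2 had an unadjusted p under 0.05, Sprr2b (4.56, 12.9 and 3.06 CPM in WT and 28.9, 11.02 and 128 CPM in libraries labelled CybbKO) and Sprr2a1, members of a family of small proline-rich proteins with much shared sequence. Both overlapped and were far highest in CybbKO replicate 3, without which 0 of the 20 passed. Endothelial and adhesion genes had a median of 0.31, between 0.16 (without WT replicate 1) and 0.53 (without WT replicate 3), and 2 of 15 had an unadjusted p under 0.05, against 7 without CybbKO replicate 2, 4 without WT replicate 3 and 1 without WT replicate 1 or CybbKO replicate 1 or 3. Vcam1, the ligand of monocyte and lymphocyte integrins, stood at 6.596, 13.4 and 12.8 CPM in WT and 17.4, 15.7 and 24.6 CPM in libraries labelled CybbKO, without overlap. Cell cycle genes had a median of 0.03, between -0.10 without WT replicate 2 and 0.15 without WT replicate 3. Nuclear-encoded respiratory chain subunits had one of -0.06, with 17 of 78 above 0. This median lay between -0.18 without CybbKO replicate 2 and 0.04 without WT replicate 3. Neither list had a gene at an unadjusted p under 0.05 in edgeR, with or without single libraries. B and plasma cell genes (median 0.00 over 5 tested) and tooth genes (4 tested) had none either with all libraries. Without WT replicate 3 the B and plasma cell list had 1 lower gene and the tooth list 1 higher gene. The B and plasma cell median was -0.33 without CybbKO replicate 2.

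The 71 genes lower at an unadjusted p under 0.05 had a median log2 fold change of -0.64, and 55 of them did not overlap. Fam81a, a gene of little-known function, stood at 4.605, 4.16 and 4.31 CPM in WT and 2.17, 2.51 and 1.89 CPM in libraries labelled CybbKO. All 3 libraries labelled CybbKO were below all WT libraries, with log2 fold change -0.99, standard error 0.22, unadjusted p = 0.000646 in edgeR's test and an adjusted p of 0.0213 in DESeq2, and in naive tissue the log2 fold change was 0.09 (unadjusted p = 0.00352 for the difference). Dlx6, a developmental transcription factor, stood at 3.58, 4.95 and 5.01 CPM in WT and 2.61, 2.996 and 1.57 CPM in libraries labelled CybbKO. Foxp2, another, stood at 15.9, 15.4 and 17.96 CPM in WT and 12.1, 7.01 and 7.58 CPM in libraries labelled CybbKO. Neither overlapped, nor did Dach1 (log2 fold change -0.85). Their naive log2 fold changes were 0.36, 0.25 and -0.15. Slurp1, a secreted peptide of stratified epithelium, stood at 69.8, 46.9 and 35.6 CPM in WT and 34.2, 32.8 and 19.7 CPM in libraries labelled CybbKO, with WT replicate 3 just above CybbKO replicate 1.

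Actc1, the cardiac actin that skeletal muscle also expresses, had the largest fold of the lower genes at 1 CPM or more that did not overlap, at 26.6, 12.6 and 19.8 CPM in WT and 9.01, 5.11 and 5.18 CPM in libraries labelled CybbKO (-1.61 with a standard error of 0.50). Skeletal muscle genes as a list had a median of -0.23, with 0 of 16 at an unadjusted p under 0.05, which was -0.82 without CybbKO replicate 2 and 0.21, with 1 lower gene, without WT replicate 3. Their mean level over the list, relative to the 6 libraries, was 0.64, -1.12 and 0.58 in WT and -0.32, 0.73 and -0.50 in the libraries labelled CybbKO. Their part in the Actc1 difference was not tested. Lpo, which encodes the lactoperoxidase of saliva, was the 1 gland gene of 11 with an unadjusted p under 0.05, at 2.36, 2.54 and 2.15 CPM in WT and 5.77, 3.29 and 31.8 CPM in libraries labelled CybbKO, and its log2 fold change of 2.53 was 0.94 without CybbKO replicate 3.

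Set beside naive tissue, the 432 higher genes had a median log2 fold change of 0.08 there and 253 had the same sign. In naive tissue itself edgeR called 1 gene, Cybb. There 92 genes (0.611%) were higher and 214 (1.42%) lower at an unadjusted p under 0.05. Acute-phase, macrophage and pattern recognition genes had naive medians of 0.08, -0.26 and -0.27, and interferon-gamma, MHC class I and neutrophil receptor genes had 0.54, 0.55 and 0.44, in the same direction as in ligated tissue. In naive tissue 3 of 21, 0 of 17 and 1 of 27 genes of these last lists had an unadjusted p under 0.05. The naive summed CPM of the interferon-gamma list overlapped, at 315, 119 and 118 in WT and 159, 222 and 372 in libraries labelled CybbKO. That of the MHC class I list also overlapped, at 1310, 804 and 1018 in WT and 1365, 1170 and 1967 in libraries labelled CybbKO. A larger difference in ligated tissue at an unadjusted p under 0.05 was found for 2 of 21 interferon-gamma genes, for 0 of 17 MHC class I genes and for 10 of 13 acute-phase genes. The acute-phase count includes genes near the floor outside the ligated libraries labelled CybbKO. Saa1 had means of 0.216 CPM in ligated WT, 0.182 in naive WT and 0.154 in naive libraries labelled CybbKO. It passed the count filter through the ligated libraries labelled CybbKO. Of the 71 lower genes 29 had the same sign in naive tissue.

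**Figure D5:**
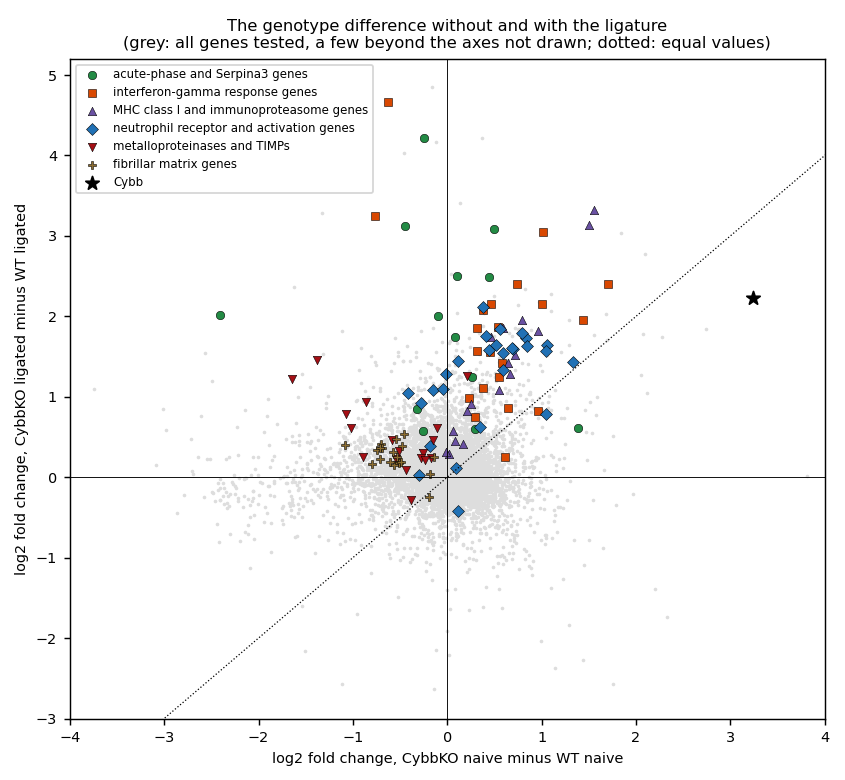
Log2 fold change of the libraries labelled CybbKO against WT in naive tissue (x axis) and in ligated tissue (y axis), with grey points for all tested genes (7 beyond the axes) and coloured points for Cybb and 6 lists. Acute-phase genes lie on both sides of 0 on the x axis and above 0 on the y axis, and interferon-gamma and MHC class I genes lie mostly above 0 on both.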

How the data were processed

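Total RNA from gingival tissue was sequenced as stranded mRNA libraries. The authors aligned the reads to GRCm38 with STAR and deposited unnormalized read counts for 21965 genes. For the counting the methods name featureCounts and the labels HTSeq 0.10.0, and which of them made the table is not known here. Gene symbols came from GENCODE M21 and matched 21939 genes.

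Counts of all 12 libraries were fitted together with edgeR 4.0.16 in R 4.3.3 (quasi-likelihood test, TMM, filterByExpr, 1 mean per group), with Benjamini-Hochberg adjustment over 15046 genes and a threshold of 0.05. The common biological coefficient of variation was 0.240. DESeq2 1.42.0 (Wald test), other scalings and filters, a robust fit, the replicate number as a block and each library left out in turn were alternatives. The procedure was checked on simulated data. An exact permutation test of 3 against 3 libraries cannot give a p below 0.1.

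The members, the 35 gene lists and the rule for naming genes were chosen with earlier results of these data known. The rule named genes called by either tool, the 25 smallest p-values, the 10 largest folds in each direction without overlap at 1 CPM or more, the 3 most abundant genes and the 3 smallest p-values of each list, the genes of the study's text and the neighbours of Cybb, of which the text gives a selection. Others, such as Igtp, Csf3r, Cd14, Ly6g and Isg15, were named after their values were seen. Promoter windows came from RefSeq (GRCm38.p6). Libraries of a group were separate samples by their labels, each from a mouse, and no pair of replicates agreed within counting noise. Counting error is small for abundant genes at these depths, and the spread between libraries limits most of their values. It is not small for genes near the floor, such as Saa1, Ly6g, Gzma and Il6. The labels' age range differs from that of the methods. Il36rn, Cxcl11, Gbp11, Mx2, Clec7a and Serpina3h were not analysed here.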

Additional observations from a re-analysis of the deposited data

How the results depend on the processing

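The number of genes called in ligated tissue was 1 with all libraries in edgeR, 18 in DESeq2 on 12 libraries, 75 in DESeq2 and 0 in edgeR on the 6 ligated libraries alone (542 at an unadjusted p under 0.05, of which 77.3% were higher), and between 0 (without WT replicate 3) and 2 (without CybbKO replicate 1, Cybb and Stx8) when single libraries were left out. Cybb kept its direction throughout, with a log2 fold change between 2.01 and 2.43 when single libraries were left out. Its adjusted p was 0.233 (log2 fold change 2.21) in edgeR on the 6 libraries and 0.054 (2.27) without WT replicate 3, both fits with fewer samples. Genes at an unadjusted p under 0.05 numbered between 244 (without WT replicate 1) and 956 (without CybbKO replicate 2), with 760 without WT replicate 3. In naive tissue DESeq2 called 2 genes, and for the difference between the tissues the count was between 0 and 1 (without WT naive replicate 2, Gm5678). Scalings moved the median of all genes by less than 0.1.

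Of the 117 genes followed besides Cybb, with 1733 alternatives, 1670 kept their direction and side of the threshold, 53 passed under DESeq2 only and 10 reversed, for causes that were not tested. Over leaving out single libraries the log2 fold changes of the genes with a reversal ran from -1.09 to 0.043 for Ltf (without WT replicate 2), from -0.081 (without WT replicate 1) to 1.40 for Cxcl1, from -0.15 (without WT replicate 1) to 1.54 for Cxcl5, from -0.094 (without CybbKO replicate 3, and -0.02 without WT replicate 1) to 0.44 for Il1rn, from -0.21 (without WT replicate 1) to 0.79 for Tnfrsf11b, from -0.23 to 0.00035 (without WT replicate 1) for Nfe2l2, from -0.18 (without CybbKO replicate 3) to 0.53 for Hif1a and from -0.20 (without CybbKO replicate 2, and -0.08 without WT replicate 3) to 0.32 for Krt13. List counts without single libraries were added after seeing the data.

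With the replicate number as a block, 1 gene was called, Cybb (log2 fold change 2.26, adjusted p = 0.0191 in edgeR), and 449 genes had an unadjusted p under 0.05. Samples share only a number here: correlations of the deviations of same-numbered libraries ran from -0.228 to 0.277 over 18 pairs, and 2 of 12 libraries correlated best with their own number.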
